A study of Mus musculus with 6 samples.

Results

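The cytotoxic granule genes described here are 8 granzyme genes (Gzma, Gzmb, Gzmc, Gzmd, Gzme, Gzmf, Gzmk and Gzmm) and the perforin gene Prf1. They were taken by symbol from the 31053 gene entries of the deposited single-cell matrices, and 9 of 9 were present. Granzymes are serine proteases that cytotoxic lymphocytes store in granules together with perforin. When the granule is released against a target cell, perforin forms pores in the target membrane and the granzymes enter through them. Granzyme B cleaves caspases and other substrates after aspartate, granzymes A and K cleave after basic residues, and granzyme M cleaves after methionine or leucine. Mice carry several further granzyme genes beside Gzmb, among them Gzmc, Gzmd, Gzme and Gzmf.

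The samples were droplet single-cell RNA libraries whose source is labelled as YUMM2.1, a mouse melanoma line, with the label Empty vector for 1 library and Bmal1 WT for the other. Bmal1, the product of Arntl, is a clock transcription factor. The labels do not say whether the cells came from a culture or a tissue, nor give a host or its age, although both libraries held many lymphocytes. Each library pooled 3 hashtagged replicates, h1, h7 and h8 for Empty vector and h3, h5 and h9 for Bmal1 WT. Hashtags are antibody barcodes that mark the cells of 1 sample before pooling. Nothing says that the hashtags mark separate cultures or animals, so the p-values measure the spread between these samples, which may be technical. Each group was 1 library, so group and library cannot be told apart. The files of a further group, Bmal1 bHLH, were copies of the Bmal1 WT files and were counted once, and that group was not analysed here.

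After filtering, 3978 Empty vector cells (median 5094 UMIs, that is distinct tagged transcript molecules) and 2386 Bmal1 WT cells (median 7570.5 UMIs) were kept, and 5 cell barcodes occurred in both libraries. Lymphocytes were gated on UMIs of marker genes, none of them a granzyme gene or Prf1. NK gate cells had at least 2 UMIs of Ncr1 and Klrb1c and at most 1 of the Cd3 genes. T cell gates required at least 2 Cd3 UMIs and were split in turn by Foxp3 (regulatory T gate), Trdc or Klra6 (Trdc or Klra6 T gate), and Cd8a or Cd8b1 against Cd4 (CD8 gate, conventional CD4 gate). The NK gate held 965 Empty vector and 382 Bmal1 WT cells, the CD8 gate 398 and 168, the Trdc or Klra6 T gate 217 and 63, the regulatory T gate 87 and 47, and the conventional CD4 gate 189 and 66. Cells with several hashtags stayed out of the replicates, and no doublet caller was run. The gates held their defining markers, with 3 reservations. Summed T cell markers, mainly constant-region transcripts, reached 750 counts per 1000000 UMIs (CPM) in the Empty vector NK gate against 4355 CPM in its CD8 gate. Macrophage markers summed to 179 CPM in the Empty vector NK gate and to 12.6 CPM in the Bmal1 WT NK gate. The Trdc or Klra6 T gate held Ncr1 or Klrb1c UMIs in 53.0% of cells from Empty vector and 63.5% from Bmal1 WT. The part of these RNAs in the results was not tested except where values without such cells are given.

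The genes lie on 3 chromosomes (GENCODE M21, GRCm38, 1-based). Prf1 (ENSMUSG00000037202) is at chr10:61297833-61304680 on the plus strand, and Gzmm (ENSMUSG00000054206) is at chr10:79689020-79695261 on the same strand. Gzma (ENSMUSG00000023132, chr13:113093825-113100981) and Gzmk (ENSMUSG00000042385, chr13:113171608-113225908) are neighbours on the minus strand. The remaining genes lie on the minus strand of chr14, namely Gzme (ENSMUSG00000022156) at chr14:56117626-56120625, Gzmd (ENSMUSG00000059256) at chr14:56129556-56132608, Gzmf (ENSMUSG00000015441) at chr14:56205263-56211417, Gzmc (ENSMUSG00000079186) at chr14:56231441-56234656 and Gzmb (ENSMUSG00000015437) at chr14:56258838-56262260. This stretch of 144.635 kb holds 13 annotated genes, of which 7 are protein-coding, and all 7 of those are granzyme genes, Gzmg and Gzmn being the other two. An antisense gene, Gm4022, overlaps Gzmf and Gzmn, and the sources used here do not say whether reads were counted by strand. The last 500 transcript bases of Gzmd shared 13.6% of their 60-base words with other granzyme transcripts, those of Gzme 11.6% and those of Gzmf 4.99%. The other 6 genes shared 0. Reads of Gzmd, Gzme and Gzmf are therefore less certain than those of the rest.

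Promoters of 4 of the chr14 genes, Gzmb, Gzmc, Gzmd and Gzmf, are shown, with that of Prf1 for comparison. Each is the 250 bases before the RefSeq start (GRCm38.p6), in the direction of transcription. Capitals mark matches, on either strand, to a Runx motif TGTGGT, an AP-1 motif TGANTCA and a cAMP response element TGACGTCA, which did not overlap each other.
Gzmb (chr14:56262335-56262584, minus strand): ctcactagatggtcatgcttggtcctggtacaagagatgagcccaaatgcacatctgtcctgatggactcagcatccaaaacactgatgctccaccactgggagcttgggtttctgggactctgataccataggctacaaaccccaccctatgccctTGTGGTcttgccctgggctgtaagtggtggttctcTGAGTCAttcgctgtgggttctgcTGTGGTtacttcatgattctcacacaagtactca
Gzmc (chr14:56234658-56234907, minus strand): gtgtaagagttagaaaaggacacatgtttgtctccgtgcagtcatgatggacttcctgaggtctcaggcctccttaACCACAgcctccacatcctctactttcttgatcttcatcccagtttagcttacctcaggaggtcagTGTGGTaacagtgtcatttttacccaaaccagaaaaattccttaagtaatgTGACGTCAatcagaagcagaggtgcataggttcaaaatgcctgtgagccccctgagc
Gzmd (chr14:56132594-56132843, minus strand): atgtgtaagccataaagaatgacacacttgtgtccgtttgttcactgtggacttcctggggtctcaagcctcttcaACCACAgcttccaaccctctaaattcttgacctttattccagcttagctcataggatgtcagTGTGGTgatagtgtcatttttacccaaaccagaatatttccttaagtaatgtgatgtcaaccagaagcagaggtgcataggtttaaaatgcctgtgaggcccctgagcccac
Gzmf (chr14:56211408-56211657, minus strand): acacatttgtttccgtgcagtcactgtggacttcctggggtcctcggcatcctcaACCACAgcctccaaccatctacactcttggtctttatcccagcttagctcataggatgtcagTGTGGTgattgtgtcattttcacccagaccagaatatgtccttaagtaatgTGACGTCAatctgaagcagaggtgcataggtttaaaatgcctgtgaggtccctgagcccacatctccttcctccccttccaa
Prf1 (chr10:61297586-61297835, plus strand): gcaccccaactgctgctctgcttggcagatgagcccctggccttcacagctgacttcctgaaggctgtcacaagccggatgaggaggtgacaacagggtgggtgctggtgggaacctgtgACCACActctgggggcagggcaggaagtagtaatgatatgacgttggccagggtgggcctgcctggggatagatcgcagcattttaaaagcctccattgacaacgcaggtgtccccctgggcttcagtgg
The Runx letters occurred in windows of 8 of the 9 genes, Gzmk being the exception, and in 4614 of 32851 promoters of the same length (14.05%). The cAMP response element occurred in Gzmc and Gzmf (and in Gzmg) and in 1.55% of promoters. AP-1 letters occurred in Gzmb alone among these genes and in 6.75% of promoters. An E-box CACGTG, the word that clock factors of the Bmal1 type bind, occurred only in a second window of Gzmm and in 6.02% of promoters. A T-box motif AGGTGTGA occurred in none of them and in 1.12% of promoters. The Gzmc window was 81.3% identical to that of Gzmd and 71.5% identical to that of Gzmf, whereas Gzmb and Gzmc shared 50.2%.

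Most transcripts of Gzma, Gzmb, Gzmc and Prf1 were in the NK gate, which also held more cells than any T cell gate. In the Empty vector library 86.3% of Gzma, 78.6% of Prf1 and 72.6% of Gzmb UMIs were in NK gate cells, and in the Bmal1 WT library 90.2%, 75.1% and 65.5%. Gzmk was placed differently, with 52.9% and 56.8% of its UMIs in the CD8 gate. Levels below are in CPM, from the UMIs of a gate's cells summed per hashtag replicate. In these sums fewer expressing cells and less RNA per cell cannot be told apart.

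**Figure D1:**
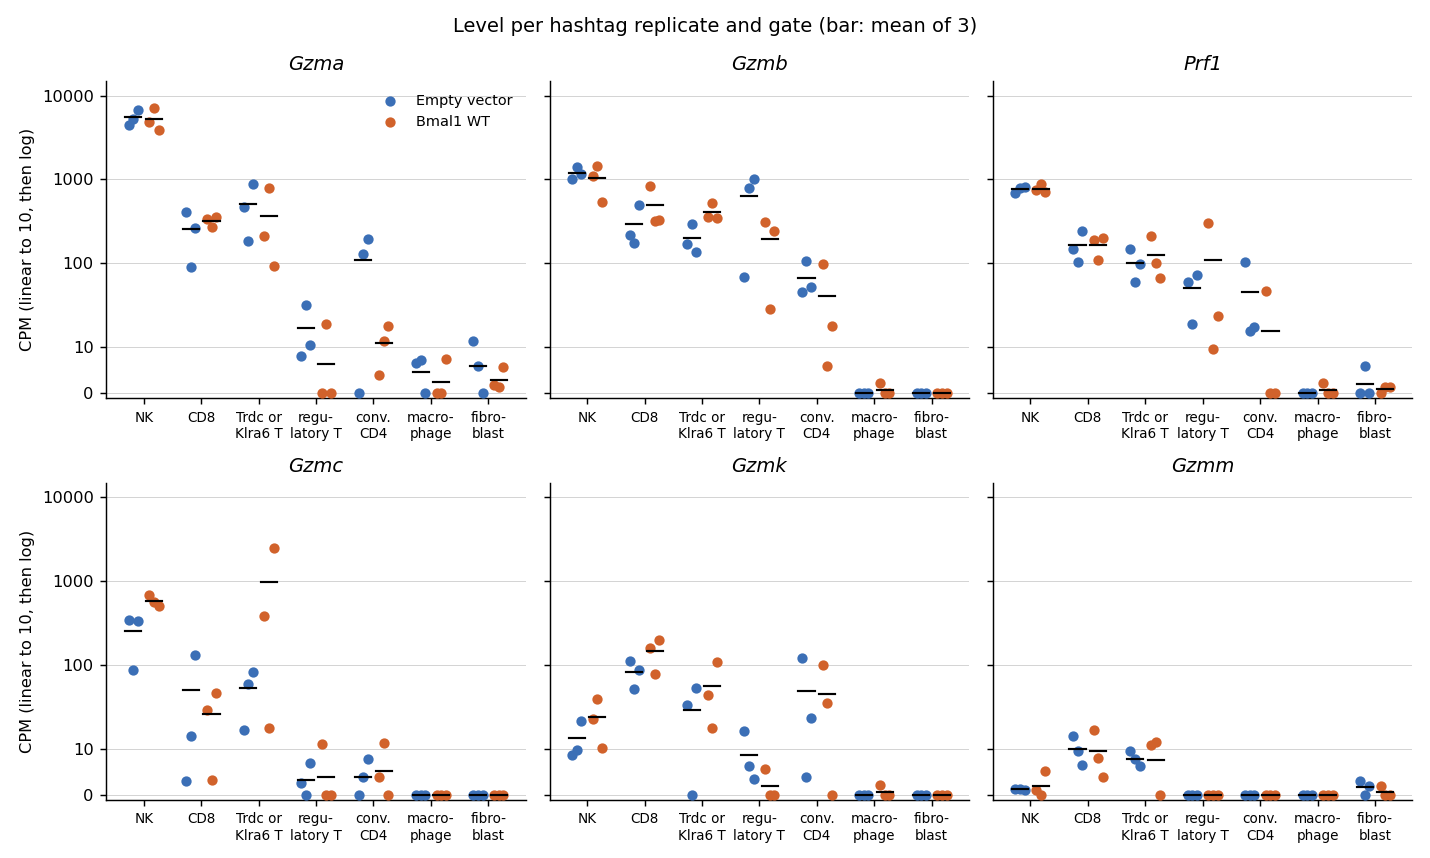
Level of 6 genes in CPM (linear to 10, then logarithmic) by gate, with 1 point per hashtag replicate and a bar for the mean of 3. Gzma is highest in the NK gate, where its 6 replicates sit between 3900 and 7228 CPM, while in the regulatory T gate they sit between 0 and 31.3 CPM.

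Perforin was highest in NK gate cells. Prf1 was at 698, 793 and 804 CPM in Empty vector h1, h7 and h8, and at 743, 875 and 715 CPM in Bmal1 WT h3, h5 and h9. The 6 values lie within a narrow range and the groups overlap. In the CD8 gate Prf1 was at 147, 103 and 245 CPM in Empty vector and at 190, 109 and 200 CPM in Bmal1 WT. In the Trdc or Klra6 T gate it was at 146, 59.4 and 97.5 CPM and at 212, 101 and 66.8 CPM, which overlaps the CD8 gate. In the regulatory T gate it was at 59.5, 18.8 and 72.7 CPM in Empty vector and at 299, 9.47 and 23.2 CPM in Bmal1 WT. The high value, h3, came from 1 cell with 75 of the 105 UMIs, and without that cell it was 89.2 CPM. In edgeR's quasi-likelihood fit over the 24 sums of gate and replicate, Prf1 was lower than in the NK gate by a log2 fold change of -2.30 ± 0.28 (SE) in the CD8 gate (adjusted p = 1.77e-07), of -2.86 ± 0.30 in the Trdc or Klra6 T gate (adjusted p = 5.33e-08) and of -3.31 ± 0.32 in the regulatory T gate (adjusted p = 2.03e-09). Between the 3 T cell gates no Prf1 difference passed the threshold of 0.05. The regulatory T gate was nearest, at -1.005 ± 0.34 against the CD8 gate (edgeR adjusted p = 0.0517), and without Bmal1 WT h3 this was -1.90 and passed.

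Granzyme A was the most abundant granule transcript of the NK gate. Gzma was at 4470, 5283 and 6752 CPM in the NK gate of Empty vector and at 4921, 7228 and 3900 CPM in that of Bmal1 WT. The CD8 gate gave 409, 89.1 and 261 CPM and 334, 269 and 358 CPM. The groups overlap in both gates. In the regulatory T gate Gzma was nearly missing, with 8.11, 31.3 and 10.4 CPM in Empty vector and 0, 18.9 and 0 CPM in Bmal1 WT. The edgeR log2 fold change against the NK gate was -4.23 ± 0.30 in the CD8 gate (adjusted p = 3.12e-12) and -9.25 ± 0.46 in the regulatory T gate (adjusted p = 8.79e-16). Regulatory T gate cells were also lower than CD8 gate cells, by -5.02 ± 0.53 (adjusted p = 4.42e-08). Macrophage and fibroblast gate cells, which should lack the gene, were taken as the background. The source of the Gzma UMIs in them was not tested. After thinning every cell to 2000 UMIs, Gzma had a UMI in 0 of 64 Empty vector macrophage gate cells, which allows a share of up to 4.69% (a count of 0 is taken to allow 3 cells), and in 1 of 99 fibroblast gate cells. In the NK gate the thinned share was 82.6% (736 of 891 cells) in Empty vector and 83.3% (310 of 372 cells) in Bmal1 WT. In the regulatory T gate it was 4.76% (4 of 84 cells; 95% exact binomial interval 1.31 to 11.7%) and 0 of 47 cells, so expression there was not told apart from the background at this depth. Of those 4 cells 1 lay in a replicate, and the others had no single hashtag. The 2 of 87 Empty vector cells of the gate with an Ncr1 or Klrb1c UMI had 6223 CPM of Gzma and the rest 16.4 CPM. Such intervals and allowances cover counting error only.

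Gzma in the Trdc or Klra6 T gate was higher in cells with NK marker UMIs, in values that pool the replicates and carry no test. The replicates gave 472, 186 and 874 CPM in Empty vector and 210, 796 and 93.5 CPM in Bmal1 WT, a wide spread in both groups. Empty vector cells of this gate with an Ncr1 or Klrb1c UMI had 1007 CPM of Gzma and those without had 17.5 CPM. In Bmal1 WT the 2 values were 382 and 160 CPM. This was not particular to Gzma. Prf1 was at 166 and 38.3 CPM in Empty vector and at 200 and 28.2 CPM in Bmal1 WT, with such UMIs first. Gzmb was at 284 and 118 CPM and at 482 and 51.8 CPM. Gzmk was at 39.5 and 12.8 CPM in Empty vector but at 6.24 and 113 CPM in Bmal1 WT, the opposite order. Gzma was lower than in the NK gate by -3.75 ± 0.29 (edgeR adjusted p = 1.06e-10), and it was not told apart from the CD8 gate (0.48 ± 0.29, edgeR adjusted p = 0.539). With all cells holding those NK marker UMIs left out of the T cell gates, an alternative chosen after the data had been seen, the difference from the CD8 gate turned to -2.12 (edgeR adjusted p = 0.0210). Within the gate, cells with Trdc but no Klra6 had 983 CPM of Gzma in Empty vector (120 cells) and 514 CPM in Bmal1 WT (24 cells), and cells with Klra6 but no Trdc had 94.3 CPM (75 cells) and 232 CPM (33 cells). Cd8a or Cd8b1 UMIs were in 40.0% and 36.4% of the cells with Klra6 alone. The shares of cells with a Gzma UMI were closer, at 16.7% with Trdc alone against 16% with Klra6 alone in Empty vector. In Bmal1 WT they rested on few cells, at 12.5% (3 of 24) against 15.2% (5 of 33).

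Granzyme B was detected in many regulatory T gate cells. Gzmb there was at 67.6, 802 and 1022 CPM in Empty vector h1, h7 and h8 and at 310, 28.4 and 244 CPM in Bmal1 WT h3, h5 and h9. The replicates of each group span more than an order of magnitude. In the CD8 gate Gzmb was at 216, 174 and 495 CPM and at 830, 319 and 327 CPM. The edgeR difference between regulatory T and CD8 gates was -0.03 ± 0.42 on the log2 scale (adjusted p = 0.990), so the 2 gates were not told apart. NK gate cells had 1009, 1407 and 1171 CPM in Empty vector and 1107, 1450 and 538 CPM in Bmal1 WT. All 3 T cell gates were lower than the NK gate in Gzmb, by -1.55 ± 0.39 in the CD8 gate (edgeR adjusted p = 0.00419), -2.001 ± 0.41 in the Trdc or Klra6 T gate (edgeR adjusted p = 0.00171) and -1.59 ± 0.41 in the regulatory T gate (edgeR adjusted p = 0.00338). In thinned cells Gzmb had a UMI in 56.1% and 60.2% of NK gate cells, in 19.5% and 32.7% of CD8 gate cells, in 18.0% and 25.4% of Trdc or Klra6 T gate cells and in 40.5% and 31.9% of regulatory T gate cells, Empty vector first. Conventional CD4 gate cells had 5.78% and 6.15%.

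Granzyme K had its highest mean level in the CD8 gate. Gzmk was at 111, 51.6 and 86.4 CPM in Empty vector and at 157, 78.5 and 200 CPM in Bmal1 WT there. NK gate cells gave 8.61, 9.74 and 21.4 CPM and 22.6, 39.6 and 10.1 CPM, so that every CD8 gate value was above every NK gate value. Conventional CD4 gate replicates ran from 3.88 to 121 CPM in Empty vector and from 0 to 101 CPM in Bmal1 WT. Those of the Trdc or Klra6 T gate ran from 0 to 53.5 CPM and from 17.8 to 107 CPM. Both gates thus overlap the CD8 gate. The edgeR log2 fold change of CD8 against NK gate was 2.55 ± 0.32 (adjusted p = 3.51e-07). Gzmk was lower than in the CD8 gate by -1.55 ± 0.35 in the Trdc or Klra6 T gate (edgeR adjusted p = 0.00776) and by -4.01 ± 0.52 in the regulatory T gate (edgeR adjusted p = 1.50e-06). The first of these calls was lost without Bmal1 WT h3 (-1.47) and, in an alternative chosen after the data had been seen, with cells holding Ncr1 or Klrb1c UMIs left out of the T cell gates (-1.04). Granzyme M was rare, with 65 Empty vector and 70 Bmal1 WT UMIs in all. Gzmm was at 14.2, 9.38 and 6.45 CPM and at 16.8, 8.01 and 3.85 CPM in the CD8 gate, against 0 to 5.07 CPM in the NK gate replicates. It was higher than in the NK gate by 2.79 ± 0.53 in the CD8 gate (edgeR adjusted p = 0.000347) and by 2.503 ± 0.59 in the Trdc or Klra6 T gate (edgeR adjusted p = 0.00829). No Gzmm UMI was found in the regulatory T or conventional CD4 gate replicates. In Bmal1 WT, 35 of 70 Gzmm UMIs lay in cells outside all gates.

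Granzyme C was confined to few cells, mostly in the NK gate. Its 4975 UMIs lay in 221 of 6364 cells, and 8 of those cells held 50.3% of them. The same share took far more cells for Gzma (275 of 1734 cells with a UMI), Gzmb (197 of 1590) and Prf1 (266 of 1705). In the NK gate Gzmc was at 344, 87.6 and 335 CPM in Empty vector and at 682, 564 and 505 CPM in Bmal1 WT. Single cells set some of these sums, since 483 of the UMIs of Empty vector h1 were in 1 cell, and without it h1 had 47.5 CPM. The CD8 gate was lower than the NK gate by -3.87 ± 0.65 (edgeR adjusted p = 4.31e-05) and the regulatory T gate, with 7 UMIs in all, by -6.94 ± 1.04 (edgeR adjusted p = 4.94e-06). In the Trdc or Klra6 T gate Gzmc was at 16.5, 59.4 and 81.8 CPM in Empty vector and at 387, 17.8 and 2525 CPM in Bmal1 WT. That gate was above the CD8 gate by 2.73 ± 0.70 (edgeR adjusted p = 0.0215). The call was lost without Empty vector h7 (2.71), Bmal1 WT h3 (2.45) or Bmal1 WT h9 (1.67), and every Gzmc UMI of the gate was in a cell with an Ncr1 or Klrb1c UMI.

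**Figure D2:**
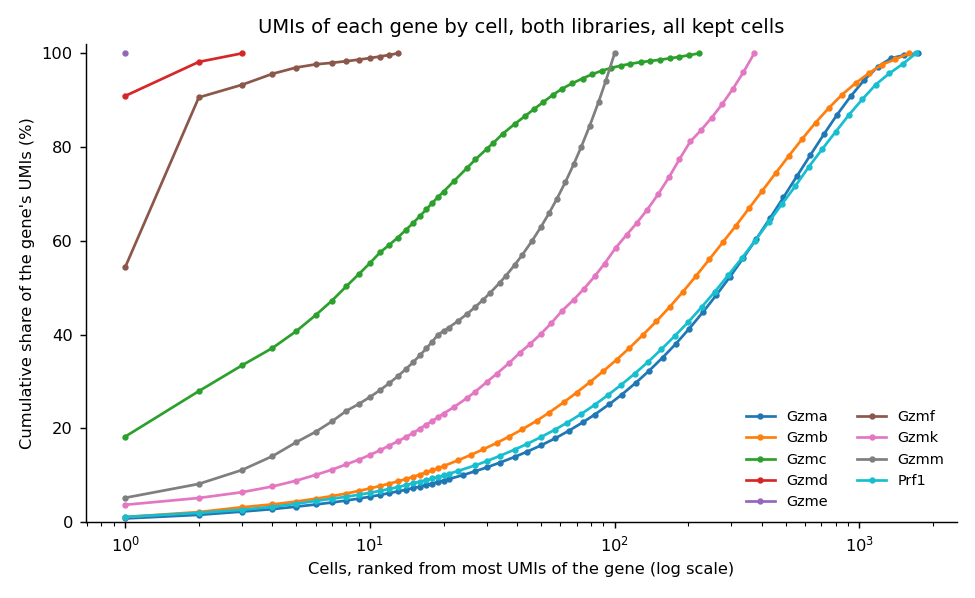
Cumulative share of each gene's UMIs (percent) over the cells of both libraries, ranked from the cell with most UMIs (log scale). The curve of Gzmc passes 50.3% at 8 cells, whereas that of Gzma reaches 48.4% at 260 cells.

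Granzymes D, E and F were found in 14 of 6364 cells, 8 of Empty vector and 6 of Bmal1 WT, counting Gzmg with them. All 23 Gzme UMIs and 50 of 55 Gzmd UMIs came from 1 NK gate cell of Empty vector h8. That cell also held 273 Gzmc, 20 Prf1, 7 Gzmb, 5 Gzmg and 2 Gzmf UMIs but 1 Gzma UMI. Of 298 Gzmf UMIs, 162 came from 1 cell of Bmal1 WT h5 that held 907 Gzmc, 99 Prf1 and 43 Gzmb UMIs and no Cd3 or NK marker UMI, so that it fell outside all gates. A CD8 gate cell of Empty vector h8 held 108 Gzmf, 48 Gzmc, 56 Prf1, 43 Gzmb and 0 Gzma UMIs. In these 3 cells several genes of the chr14 stretch occurred together while Gzma was at 0 or 1 UMI. Gate calls for Gzmd and Gzmf rest on these single cells and are given as counts of calls only.

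Taking the 8 genes with at least 30 UMIs over the sums (Gzme had fewer), 8 of 8 differed between the CD8 and NK gates, 3 higher and 5 lower in the CD8 gate, where 17.9% of 10681 genes were called (10.3% higher and 7.52% lower). Leaving aside Gzmd and Gzmf, it was 6 of 6, with Gzmk and Gzmm higher. The Trdc or Klra6 T gate differed from the NK gate in 4 of 8 (1 higher, 3 lower), with 6.62% of all genes called (3.69% higher and 2.93% lower). The regulatory T gate was lower than the NK gate in 5 of 8, with 30.2% of genes called (19.2% higher and 11.1% lower), and lower than the CD8 gate in 4 of 8, with 11.5% called (6.37% higher and 5.14% lower). It was lower than the Trdc or Klra6 T gate in 4 of 8, with 16.7% called (9.93% higher and 6.76% lower). The Trdc or Klra6 T gate differed from the CD8 gate in 3 of 8 (1 higher, 2 lower), with 3.51% called (1.81% higher and 1.7% lower). Gzmd and Gzmf reached 30 UMIs mainly through 1 NK gate cell and 1 CD8 gate cell, so their directions follow from those cells. The counts out of 8 and the medians below still include them. The median log2 fold change of the 8 genes was -1.93 in CD8 against NK, beside 0.07 over all genes. It was -3.51 in regulatory T against NK, beside 0.12, and -1.62 with the 3 genes at 0 UMIs in the regulatory T gate set to the bound of 3 UMIs. Trimmed-mean (TMM) scaling moved that last background median to -0.06, a shift of the whole scale that changes no direction of a called granule gene.

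**Figure D3:**
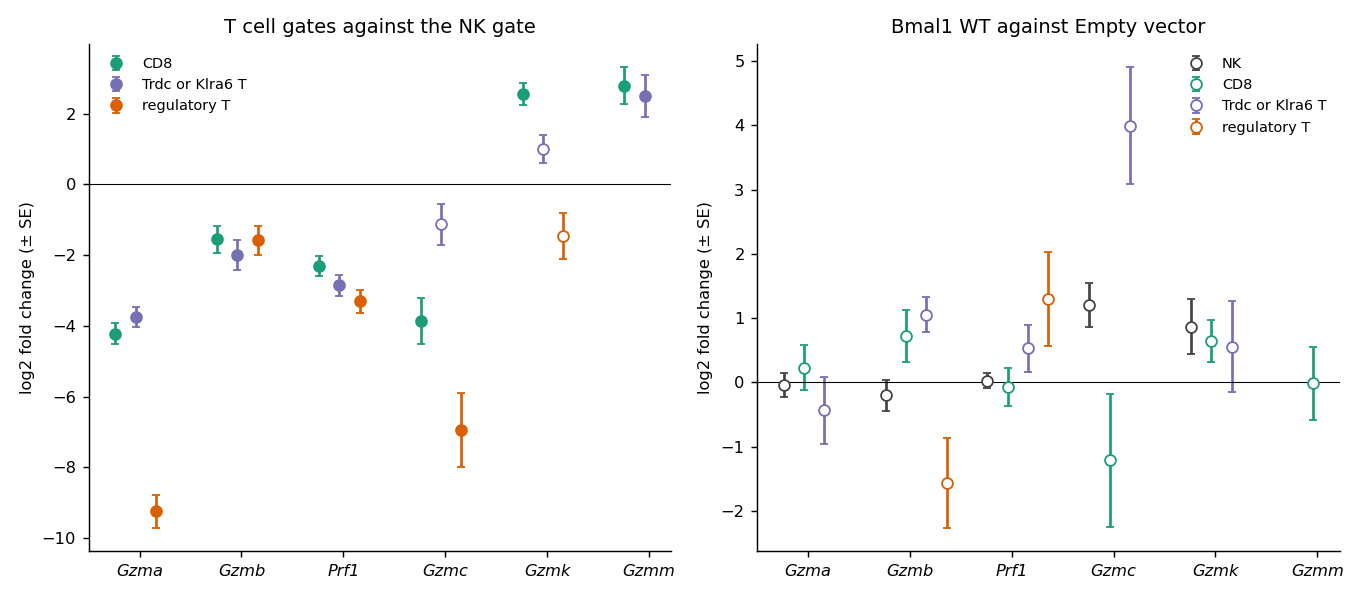
Log2 fold change (± SE, edgeR) of the granule genes, for each T cell gate against the NK gate and for Bmal1 WT against Empty vector in each gate; filled points passed an adjusted p of 0.05 and open points did not. The fold changes of Gzma, Gzmb and Prf1 against the NK gate are filled and below 0 in all 3 T cell gates, whereas every point for Bmal1 WT against Empty vector is open.

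Of 12 genes that load, activate and release granules, 2 were higher and 2 lower in the CD8 than in the NK gate, where 10.3% of all genes were higher and 7.52% lower (median log2 fold change -0.15, beside 0.07 over all genes). Ctsc, the protease that activates granzyme precursors, was higher by 0.50 ± 0.15 (edgeR adjusted p = 0.0163), and Ctsw was lower by -0.71 ± 0.13 (edgeR adjusted p = 0.000207). Against the CD8 gate, the regulatory T gate was lower in 3 of 12 and higher in 2 of 12, with 5.14% of all genes lower and 6.37% higher. Nkg7, a granule membrane protein, was lower by -1.64 ± 0.18 (edgeR adjusted p = 6.10e-08) and Ctsc by -1.31 ± 0.18 (edgeR adjusted p = 3.84e-06). Stx11, a syntaxin needed for granule fusion, was higher by 2.43 ± 0.23 (edgeR adjusted p = 5.29e-09), as was Srgn, the proteoglycan core on which granzymes are stored (0.67 ± 0.14, edgeR adjusted p = 0.00153).

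Serpins that inhibit granzymes were examined next. Of 5 inhibitor genes, 3 were lower and 1 was higher in each T cell gate than in the NK gate. Of all genes, 7.52%, 2.93% and 11.1% were lower in the CD8, Trdc or Klra6 T and regulatory T gates. In the same order 10.3%, 3.69% and 19.2% were higher. Serpinb9, the inhibitor of granzyme B, was lower by -2.33 ± 0.17 in the CD8 gate (edgeR adjusted p = 5.28e-12) and by -4.63 ± 0.22 in the regulatory T gate (edgeR adjusted p = 2.67e-16). Serpinb9b, a mouse relative of it, was at 97.1 CPM over the NK gate replicates and had 0 UMIs in the CD8 and regulatory T gate replicates. With a floor of 3 UMIs over a gate, it was at least 134-fold higher in the NK gate than in the CD8 gate (edgeR adjusted p = 7.57e-10) and at least 46.9-fold higher than in the regulatory T gate. Serpinb6b was lower in the CD8 than in the NK gate by -2.14 ± 0.20 (edgeR adjusted p = 1.66e-09). Serpinb6a was the one that was higher in the CD8 gate, by 2.05 ± 0.22 (edgeR adjusted p = 3.51e-08). The regulatory T gate, whose Gzmb level was not told apart from that of the CD8 gate, had less Serpinb9 than it by -2.29 ± 0.23 (edgeR adjusted p = 1.89e-08).

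Among the other lists, Fasl, a death ligand of killer cells, was lower in the CD8 than in the NK gate by -0.76 ± 0.18 (edgeR adjusted p = 0.00315) and in the regulatory T than in the CD8 gate by -2.53 ± 0.28 (edgeR adjusted p = 1.14e-07). Tnfsf10, another death ligand, was higher in the CD8 than in the NK gate by 0.96 ± 0.18 (edgeR adjusted p = 0.000264). Tnf and Lta, cytokines of activated T cells, were also higher in the CD8 than in the NK gate by 2.47 ± 0.57 (edgeR adjusted p = 0.00189) and 2.57 ± 0.65 (edgeR adjusted p = 0.00484). Of 9 regulators of the cytotoxic program, 5 were lower and 2 higher in the CD8 than in the NK gate, beside the 7.52% and 10.3% of all genes. Eomes, a T-box factor, was lower by -2.58 ± 0.19 (edgeR adjusted p = 1.10e-11), and its relative Tbx21 was lower by -0.84 ± 0.19 (edgeR adjusted p = 0.00163). Irf4 was higher by 4.09 ± 0.48 (edgeR adjusted p = 1.15e-07). Prdm1, which encodes Blimp-1, was higher in the regulatory T than in the CD8 gate by 1.14 ± 0.30 (edgeR adjusted p = 0.0102). Of 4 receptor genes for interleukins 2 and 15, 1 was lower and 1 higher in the CD8 than in the NK gate, beside the same 7.52% and 10.3%. Il2rb was lower by -0.98 ± 0.11 (edgeR adjusted p = 6.67e-08), and Il2ra was higher by 3.54 ± 0.46 (edgeR adjusted p = 9.17e-07). Gzmg had 9 UMIs and Gzmn 0 in all cells, and neither was tested.

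Combinations of the 3 main genes were counted within single cells. After thinning to 2000 UMIs, 40.2% of Empty vector NK gate cells (358 of 891) and 45.4% of Bmal1 WT NK gate cells (169 of 372) had Gzma, Gzmb and Prf1 together. The replicates ranged from 36.7 to 42.1% in Empty vector and from 32.8 to 46.4% in Bmal1 WT, and so overlap. NK gate cells with Gzma and Prf1 only made up 16.2% and 15.1%, and those with none of the 3 made up 9.20% and 7.80%. In the CD8 gate cells with none of the 3 were the largest class, at 58.9% (215 of 365) and 51.2% (83 of 162). Prf1 alone was next in Empty vector (16.7%), whereas in Bmal1 WT Gzmb alone and Prf1 alone were at 13.0% and 12.3%. Cells with all 3 were 2.74% and 4.94% of the CD8 gate.

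In the regulatory T gate the most frequent class with a UMI was Gzmb alone. Gzmb without Gzma or Prf1 was seen in 31.0% of Empty vector cells (26 of 84; 95% exact binomial interval 21.3 to 42.0%) and in 21.3% of Bmal1 WT cells (10 of 47; 10.7 to 35.7%). By replicate this was 12.5, 44.4 and 39.4% in Empty vector, and in Bmal1 WT it was 15.4% in h3, 22.2% in h5 and 3 of 10 cells in h9, so the groups overlap. Gzmb with Prf1 was seen in 4.76% and 10.6% of cells. Both cells with all 3 genes lay outside the replicates. Gzma without Gzmb was in 0 of 84 cells, which by the same allowance of 3 cells permits up to 3.57%, and in 0 of 47. In the Trdc or Klra6 T gate Gzmb alone was the largest class with a UMI, at 10.4% and 17.5%, and 71.6% and 63.5% of cells had none of the 3. Conventional CD4 gate cells had none of the 3 in 92.5% and 86.2%.

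**Figure D4:**
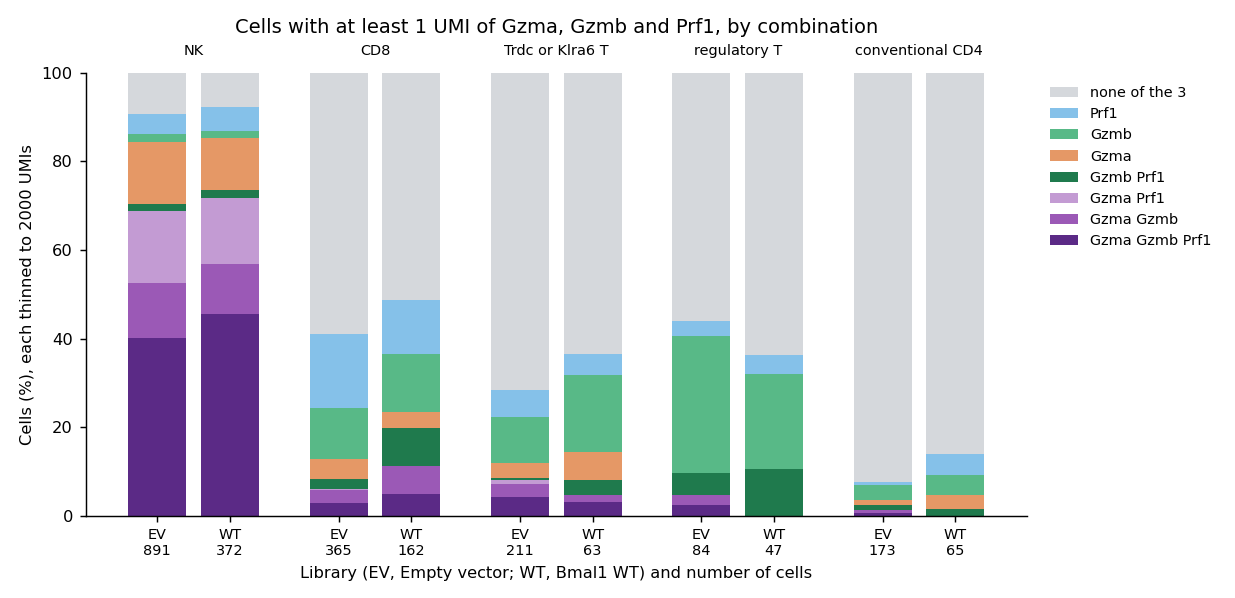
Percentage of cells, each thinned to 2000 UMIs, with each combination of Gzma, Gzmb and Prf1, by gate and library. Cells with all 3 fill 40.2% and 45.4% of the NK gate bars, and in the regulatory T gate Gzmb alone fills 31.0% and 21.3%.

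Within the NK gate, the share of cells with Gzma was lower among cells with Gzmc in 6 of 6 replicates. Among thinned cells 36 of Empty vector and 39 of Bmal1 WT had a Gzmc UMI. Gzma was in 47.2% of the Gzmc cells and 84.1% of the others in Empty vector, and in 43.6% and 88.0% in Bmal1 WT. The difference averaged -43.1 points (SD 10.0, n = 6 replicates) and had this sign in 6 of 6, with an exact two-sided sign-flip permutation p of 0.0312, the smallest that 6 replicates can give, and 0.219 after Benjamini-Hochberg adjustment over 7 such relations. It thus failed the correction, and the relation was chosen after the data had been seen. Gzmb and Prf1 gave mean differences of 1.33 points (higher in 4 of 6, exact permutation p = 0.812) and -10.5 points (lower in 4 of 6, exact permutation p = 0.219). The Gzmc cells were deeper before thinning, with a median of 7549.5 against 4943 UMIs in Empty vector and 12631 against 6177 UMIs in Bmal1 WT. The part of depth that thinning does not remove was not tested.

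The lower Gzma of the Gzmc cells held in summed levels as well. Gzma was at 1509 CPM in Gzmc cells and 5762 CPM in the others in Empty vector, and at 1687 and 6178 CPM in Bmal1 WT. Gzmb was at 826 against 1188 CPM and at 717 against 1223 CPM. Eomes was lower in the Gzmc cells in 6 of 6 replicates (290 against 529 CPM, and 283 against 443 CPM). So were Gzmk, Zeb2, Serpinb9, Serpinb9b, Serpinb6b, Fasl, Ifng and Nkg7. The NK markers that set the gate were lower too, with Klrb1c at 577 against 821 CPM and at 373 against 713 CPM. Cst7, an inhibitor of the cathepsins that activate granzymes, was higher in 6 of 6, at 309 against 157 CPM in Empty vector and at 272 against 141 CPM in Bmal1 WT. The cycling markers Mki67 and Top2a were higher in the Gzmc cells in 4 of 6 replicates. Top2a was at 159 against 97.8 CPM in Empty vector and at 396 against 180 CPM in Bmal1 WT. The share of all genes lower or higher in 6 of 6 replicates was not counted. These sums are descriptions over few cells and were not tested.

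**Figure D5:**
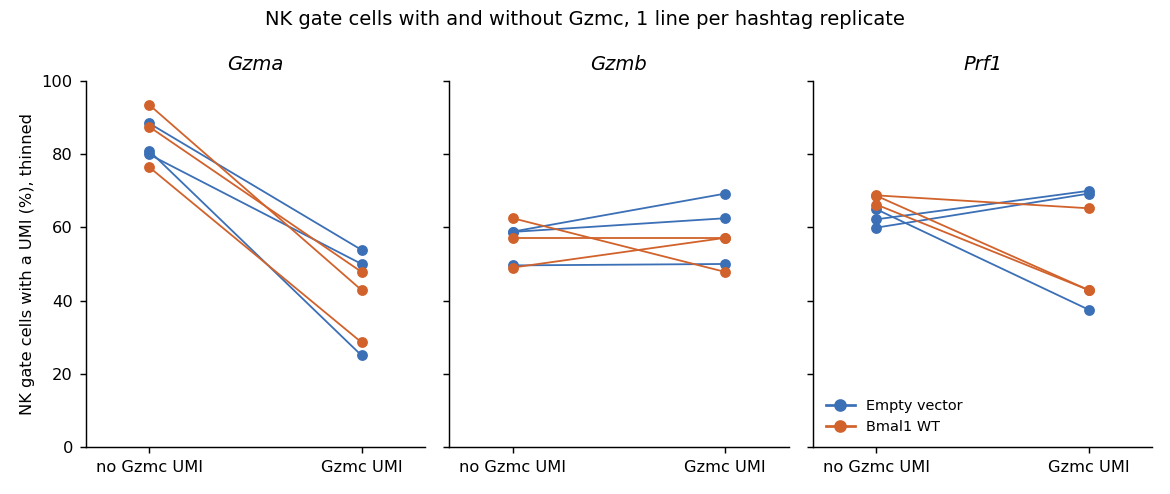
Percentage of thinned NK gate cells with a UMI of Gzma, Gzmb or Prf1 among cells without and with a Gzmc UMI, with 1 line per hashtag replicate. All 6 Gzma lines fall, with a mean difference of -43.1 points, whereas the Gzmb lines go both ways.

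In the CD8 gate, cells with Gzmk had Gzmb more often in 5 of 6 replicates. The mean difference was 17.2 points (SD 16.8, n = 6; exact permutation p = 0.0625), which did not pass. In Empty vector 23 of 56 cells with Gzmk had Gzmb, against 48 of 309 without, and in Bmal1 WT 19 of 37 against 34 of 125. Gzmb with Prf1 and Gzmb with Gzma were each more frequent together in 4 of 6 replicates (exact permutation p = 0.125 for both).

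Empty vector and Bmal1 WT were then compared within each gate for the RNA of the granule genes. The labels give no separate Bmal1 status for the lymphocytes. No granule gene was called in any gate by edgeR at an adjusted p of 0.05. In all, 0 of 9424 genes were called in the NK gate (0%, with 910 at an unadjusted p under 0.05 and 80 calls by DESeq2), 1 of 8758 in the CD8 gate (0.0114%), 0 of 7094 in the Trdc or Klra6 T gate (0%, with 530 unadjusted and 35 by DESeq2), 0 of 6316 in the regulatory T gate (0%, with 411 unadjusted and 1 by DESeq2) and 2 of 6523 in the conventional CD4 gate (0.0307%). Of the granule genes, 6 were tested in the NK gate, 7 in the CD8 gate, 5 in the Trdc or Klra6 T gate, 2 in the regulatory T gate and 4 in the conventional CD4 gate. The rest had under 30 UMIs. With no gene filter 8 differences of granule genes between the groups passed. Calls over all genes rose as well under that setting, and both are given in the closing section. None of the genes of the other lists was called between the groups in these gates either.

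In the NK gate the 3 main genes had nearly equal means. Gzma averaged 5502 ± 1156 in Empty vector and 5350 ± 1705 in Bmal1 WT (CPM, SD, n = 3), a log2 fold change of -0.04 ± 0.19. Prf1 averaged 765 ± 58.4 and 778 ± 85.4 CPM (0.02 ± 0.12), and Gzmb 1196 ± 200 and 1032 ± 461 CPM (-0.20 ± 0.24). Gzmc differed more, at 255 ± 145 CPM in Empty vector, against 583 ± 90.3 CPM in Bmal1 WT. Its 3 Bmal1 WT replicates were all above the 3 Empty vector replicates, and 15.7% of the genes tested in that gate did not overlap between groups. Bmal1 WT was higher by 1.202 ± 0.34 on the log2 scale without passing (edgeR adjusted p = 0.269), and by 0.80 with a call without Empty vector h7 (edgeR adjusted p = 0.0202). The share of thinned NK gate cells with Gzmc, Gzmd, Gzme or Gzmf was 4.08 ± 0.36% in Empty vector and 10.7 ± 2.03% in Bmal1 WT (SD, n = 3). The exact two-sided permutation p was 0.1, the smallest that 3 against 3 can give, and 0.6 adjusted over 12 such shares, so none of these shares could pass 0.05. Beside this, cycling markers summed to 142 CPM in the Empty vector and 389 CPM in the Bmal1 WT NK gate, and their part in the result was not tested.

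In the T cell gates the replicates of 1 group often spread as widely as the groups differed. Gzmb in the CD8 gate averaged 295 ± 175 CPM in Empty vector, against 492 ± 293 CPM in Bmal1 WT (0.72 ± 0.40, edgeR adjusted p = 0.692), and Gzmk 82.9 ± 29.7 and 145 ± 61.6 CPM (0.64 ± 0.32, edgeR adjusted p = 0.656). In the Trdc or Klra6 T gate Gzmb was at 169, 292 and 137 CPM in Empty vector and at 351, 523 and 347 CPM in Bmal1 WT. These groups do not overlap, as was the case for 14.5% of the genes tested there. The difference on the log2 scale was 1.05 ± 0.28 (edgeR adjusted p = 0.417). Only cells of this gate holding an Ncr1 or Klrb1c UMI had this direction, with Gzmb at 284 CPM for Empty vector against 482 CPM for Bmal1 WT. Cells without such a UMI went the other way, at 118 against 51.8 CPM, Empty vector first. These split values pool all cells of the gate and carry no test. Gzmc in that gate gave 3.99 ± 0.91 (edgeR adjusted p = 0.329), with 1 Bmal1 WT replicate, h5, inside the Empty vector range. Over the replicates left out in turn it ranged from 2.05, without Bmal1 WT h9, to 4.63, without Bmal1 WT h5. Only without h5 was it called (edgeR adjusted p = 0.00873). Few cells set this level, since in Bmal1 WT 117 of its 334 UMIs there were in 2 cells and 74 in 1 other. Cells without an Ncr1 or Klrb1c UMI had 0 CPM in both groups. Gzmb in the regulatory T gate averaged 630 ± 500 CPM in Empty vector, against 194 ± 147 CPM in Bmal1 WT, a log2 fold change of -1.56 ± 0.70 (edgeR adjusted p = 0.759). These groups overlap, whereas 11.3% of the genes tested there did not. In the conventional CD4 gate Gzma was at -3.65 ± 1.28 (edgeR adjusted p = 0.534), and it was -4.21 and called without Empty vector h1 (edgeR adjusted p = 0.0328). In that gate 5 of 189 Empty vector cells held an Ncr1 or Klrb1c UMI and had 3009 CPM of Gzma, while the other Empty vector cells had 32.4 CPM and the Bmal1 WT cells without such a UMI 8.18 CPM. The part of these cells in the result was not tested.

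Gzmb and Prf1 in the same thinned cell were seen in 41.8 ± 3.94% of Empty vector and 43.3 ± 7.62% of Bmal1 WT NK gate cells (SD, n = 3; exact permutation p = 0.8). In the CD8 gate this was 4.49 ± 5.51% and 12.4 ± 6.88% (exact permutation p = 0.2). In the Trdc or Klra6 T gate it was 3.75 ± 0.73% and 7.13 ± 1.70% (exact permutation p = 0.1, adjusted 0.6). That difference of 3.39 points was 13.1 points with no thinning and 0 without cells holding Ncr1 or Klrb1c UMIs, an alternative chosen after the data had been seen. Whether the difference between the groups changed from gate to gate was asked with interaction terms against the NK gate. No granule gene was called in the 3 tests by edgeR, where 0.00936%, 0.0281% and 0.00936% of genes were called for the CD8, Trdc or Klra6 T and regulatory T gates. Gzmb gave 0.92 ± 0.67, 1.29 ± 0.71 and -1.05 ± 0.73 in these 3 terms.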

How the data were processed

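The authors deposited UMI counts per gene and cell barcode with hashtag counts, made with Cell Ranger 6.1.2 and not normalized. The submitters' processing notes name the mm10 build, and annotation and strand use are not given in the sources used here. Cells needed at least 200 genes and at most 20% mitochondrial UMIs. Hashtags were assigned with a 2-component Gaussian mixture (scikit-learn 1.9.0). Counts were summed per gate and replicate (74845 to 1862324 UMIs per sum in the 4 main gates) and tested with edgeR 4.0.16 (quasi-likelihood, total-UMI scaling, genes with at least 30 UMIs, Benjamini-Hochberg). Gates were compared in 1 fit over 24 sums with the replicate as a block, since the same hashtag is the same sample in every gate. Shares used cells thinned to 2000 UMIs and exact permutation tests over replicates. DESeq2 1.42.0, TMM scaling, other gene filters and leaving out each replicate were alternatives. Other cell filters, gates and hashtag calls were run for Bmal1 WT against Empty vector and for shares. Comparisons between gates and interactions were not run with them, except with cells holding NK marker UMIs left out of the T cell gates. Fits were checked on simulated counts.

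The genes and lists were chosen with earlier results of these data known. Named genes were the 9 granule genes, list genes past the threshold or needed in a sentence, and the 3 genes most like each of 6 granule genes.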

Additional observations from a re-analysis of the deposited data

How the results depend on the processing

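The directions and calls of the granule genes held in 1030 of the 1170 comparisons of a gene with an alternative setting. In 80 the sign changed while neither value was called, 32 gained a call, 24 lost one and 4 turned over. Of the gained calls, 20 came with no gene filter, 2 with DESeq2, 2 without NK marker UMIs, 1 with TMM scaling and the others with a replicate left out. With no gene filter 8 of them were between Bmal1 WT and Empty vector: Gzmb in the CD8, regulatory T and Trdc or Klra6 T gates, Gzmc in the NK and Trdc or Klra6 T gates, Gzma in the conventional CD4 gate, Gzmd in the NK gate and Gzmf in the CD8 gate. Calls over all genes rose in each of those gates under that setting too, as counted further below. Of the lost calls, 18 were of Gzmd or Gzmf, 3 of Gzmc and 3 of Gzmk. Of the 1413 such comparisons for called genes of the other lists, 149 lost the call and 2 turned over. The cause was not tested. Depth limits Gzmd, Gzme, Gzmf and Gzmm, which rest on few UMIs or single cells, and every gate of Bmal1 WT except the NK gate. Each group was 1 library, so no alternative separates group from library. The alternative without NK marker UMIs in the T cell gates was chosen after the data had been seen.

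No paired analysis was possible because Empty vector and Bmal1 WT share no hashtag number. Between gates, the fit with no replicate block gave 1705 genes for CD8 against NK (1907 with the block), 592 for Trdc or Klra6 T against NK (707), 3101 for regulatory T against NK (3230), 307 for Trdc or Klra6 T against CD8 (375), 1084 for regulatory T against CD8 (1229) and 1666 for regulatory T against Trdc or Klra6 T (1783). The interactions gave 0, 0 and 0 genes without the replicate block, where the block gave 1 for the CD8, 3 for the Trdc or Klra6 T and 1 for the regulatory T gate. DESeq2 gave 0 for each of these 3, and no gene filter gave 24, 25 and 23.

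Genes called between Bmal1 WT and Empty vector depended on the tool and filter. In the CD8 gate the count of 1 became 0 with at least 100 UMIs, with centred log hashtag calls or with cells of other types kept, 4 by DESeq2 and 112 with no gene filter. In the NK gate the count of 0 became 3 with centred log hashtag calls, 80 by DESeq2 and 178 with no gene filter. In the Trdc or Klra6 T gate 0 became 1 with stricter cells, 5 without NK marker UMIs, 35 by DESeq2 and 74 with no gene filter. In the conventional CD4 gate 2 became 4 by DESeq2 and 170 with no gene filter, and in the regulatory T gate 0 became 1 and 79. With 1 replicate left out the counts were 0 to 1 in the CD8 gate, 0 to 89 in the NK gate (89 without Empty vector h7), 0 to 28 in the Trdc or Klra6 T gate (28 without Empty vector h8), 0 to 9 in the conventional CD4 gate (9 without Empty vector h7) and 0 to 1 in the regulatory T gate. The interactions gave 0 to 3, 0 to 3 and 0 to 2.

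Between gates, leaving out 1 replicate gave 1417 to 1768 genes for CD8 against NK, 487 to 646 for Trdc or Klra6 T against NK, 2549 to 3014 for regulatory T against NK, 942 to 1248 for regulatory T against CD8, 1322 to 1656 for regulatory T against Trdc or Klra6 T and 215 to 300 for Trdc or Klra6 T against CD8, lowest without Empty vector h1 (215) and Bmal1 WT h5 (245). Without NK marker UMIs, Trdc or Klra6 T against CD8 gave 146 genes (98 higher and 48 lower, where the split was 193 and 182), and regulatory T against Trdc or Klra6 T gave 1140. TMM scaling changed the split of regulatory T against NK from 2046 higher and 1184 lower to 1500 and 1641, of regulatory T against CD8 from 680 and 549 to 508 and 688, of regulatory T against Trdc or Klra6 T from 1061 and 722 to 801 and 885, and of Trdc or Klra6 T against NK from 394 and 313 to 328 and 408.

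Without NK marker UMIs, against the CD8 gate the Trdc or Klra6 T gate gave log2 fold changes of -2.12 for Gzma, -6.82 for Gzmc, -0.22 for Serpinb6b and -0.11 for Serpinb9, each turned in sign, and regulatory T against Trdc or Klra6 T gave 4.58 for Gzmc. Those Gzmc values set a gate at 0 UMIs against another and measure no fold. DESeq2 turned Gzmd in regulatory T against NK to 0.90. Prf1 in regulatory T against CD8 was also called under DESeq2, TMM scaling and no gene filter.

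Differences in shares, as Bmal1 WT minus Empty vector in points, changed sign as follows. Gzma with Gzmb in the NK gate (0.455) became -2.17 with at least 2 UMIs of each gene, and in the Trdc or Klra6 T gate (-2.22) it became 1.47 with that minimum, 0.112 with stricter cells and 2.38 without NK marker UMIs. Gzmb with Prf1 became -1.14 in the NK gate (1.503) with at least 2 UMIs and -0.527 in the Trdc or Klra6 T gate (3.39) thinned to 1000 UMIs. In the regulatory T gate (1.99) it became -1.01 thinned to 1000 UMIs, -0.447 with no thinning, -3.37 with stricter cells and -0.549 with centred log hashtag calls. Any of Gzmc, Gzmd, Gzme and Gzmf became 0.772 thinned to 1000 UMIs and 1.91 with no thinning in the CD8 gate (-2.11), and -1.12 with stricter cells in the regulatory T gate (3.85). With 1 replicate left out, Gzma with Gzmb ranged from -2.01 to 4.22 in the NK gate, 0.937 to 8.40 in the CD8 gate, -3.59 to -0.165 in the Trdc or Klra6 T gate and -2.78 to 0 in the regulatory T gate. Gzmb with Prf1 ranged from -0.726 to 5.90, 4.40 to 11.3, 2.41 to 3.92 and -4.42 to 5.20 in the same order. Any of Gzmc to Gzmf ranged from 5.87 to 7.74, -4.00 to -1.04, 1.69 to 10.8 and 0 to 5.77. In the NK gate the first 2 shares were negative without Empty vector h1, Bmal1 WT h3 or Bmal1 WT h5, and in the regulatory T gate Gzmb with Prf1 was negative without Empty vector h7 or Bmal1 WT h3.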

Other observations

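Over the 16 sums of gate and library, the genes, other than the granule genes themselves, whose level on the log2(CPM + 10) scale was most like that of Prf1 were Tbx21, the T-box factor of type 1 lymphocytes (Pearson r = 0.96), Gm19585 (0.96) and Tmem163 (0.95). For Gzma they were Klri2, an NK receptor gene (0.97), AC163354.1 (0.97) and Ifitm10 (0.96). For Gzmb they were Bspry (0.98), Cst7 (0.96) and Gm19585 (0.96), and for Gzmc they were Klra3 (0.97), Samd3 (0.95) and Cited4 (0.95). For Gzmk they were Gm29243 (0.93), Ehd3 (0.92) and Ifng, the interferon gamma gene (0.92), and for Gzmm they were Bend4 (0.89), Trgv2 (0.87) and Cd160 (0.84). Of the granule genes Prf1 and Gzmb were most like each other (0.96). The sums share libraries and 8 gates, so these values are descriptions with no test.

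Some granule transcripts lay outside the gates. Bmal1 WT cells with no marker of any gate (1273 cells) held 924 Gzmc, 163 Gzmf and 156 Prf1 UMIs, of which 907 Gzmc, 162 Gzmf and 99 Prf1 UMIs were in 1 cell.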
